A study of Homo sapiens with 16 samples.

Results

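TRIM28 and SETDB1 were mapped by chromatin immunoprecipitation and sequencing (ChIP-seq) in shARID1A cells, and their peak lists were set against each other. These are 2 of the 16 samples of the series. They were taken by their titles, with the peaks called against input as the main lists and those called against IgG (a precipitation with a non-specific antibody) as the second. On chromosomes 1 to 22 and X the TRIM28 library had 203714 peaks against input and the SETDB1 library 39245. All cells were HCT116, an established human colon cancer line grown in RPMI1640 medium with 10% serum. The shARID1A label names a short hairpin RNA against ARID1A, part of the SWI/SNF complex, which remodels nucleosomes. The labels give neither the hairpin nor the number of clones nor the level of ARID1A left. Chromatin was fixed with 1% formaldehyde and sheared by sonication. The sample label and the protocol name different CST products as the TRIM28 antibody, and both name ABclonal A6145 for SETDB1. The series also covers shCtrl cells, with a control hairpin, and unmodified cells. Each group held 1 library, so no value has a replicate check, no test between libraries was possible, and 95% intervals cover counting error only.

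TRIM28, also called KAP1 or TIF1β, is a corepressor with no DNA-binding domain of known sequence preference, and is brought to chromatin mainly by KRAB zinc finger proteins. SETDB1 is a histone methyltransferase that places trimethyl marks on lysine 9 of histone H3 (H3K9me3), and TRIM28 is one of the proteins that recruit it. The pair is best known for silencing endogenous retroviruses and for marking clusters of zinc finger genes, and SETDB1 also acts without TRIM28, for instance with the HUSH complex.

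Printed here are 11 promoters under tall peaks, chosen because they held ACTACAA or GCATGCG. They show sites behind the motif shares below, and do not show how common either sequence was. A peak was called strong where the authors' q was at most 0.05. Each line gives 60 bases upstream of the start of a protein-coding gene from the RefSeq promoter table (GRCh38.p14), 5′ to 3′ along the gene's strand. Promoters whose match did not lie wholly upstream of the start were passed over. Among the rest, the first 4 are the tallest strong SETDB1 promoters with a match to ACTACAA that had no TRIM28 peak in either list. The next 3 are the tallest such promoters that did have a TRIM28 peak. The last 4 are the tallest strong TRIM28 promoters with a match to GCATGCG. Capitals mark ACTACAA or its complement TTGTAGT in the first 7 lines, and GCATGCG or its complement CGCATGC in the last 4. In DSN1, SAFB2 and CHMP2A both overlap and read CGCATGCG.
PTDSS2 (chr11:450219-450278, + strand): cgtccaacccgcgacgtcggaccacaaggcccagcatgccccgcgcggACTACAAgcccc
PEMT (chr17:17591809-17591868, - strand): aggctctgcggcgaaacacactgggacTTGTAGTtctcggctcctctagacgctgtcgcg
BOD1 (chr5:173616745-173616804, - strand): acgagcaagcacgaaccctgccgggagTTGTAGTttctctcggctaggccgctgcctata
PRCC (chr1:156767285-156767344, + strand): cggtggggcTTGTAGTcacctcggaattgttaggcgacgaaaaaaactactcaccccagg
C1orf159 (chr1:1116158-1116217, - strand): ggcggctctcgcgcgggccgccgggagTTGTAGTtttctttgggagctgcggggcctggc
UCKL1 (chr20:63956557-63956616, - strand): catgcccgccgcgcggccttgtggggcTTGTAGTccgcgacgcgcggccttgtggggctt
GSPT1 (chr16:11916083-11916142, - strand): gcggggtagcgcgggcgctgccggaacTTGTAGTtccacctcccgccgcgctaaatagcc
NDEL1 (chr17:8435802-8435861, + strand): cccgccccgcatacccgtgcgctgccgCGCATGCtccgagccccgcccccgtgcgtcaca
DSN1 (chr20:36773872-36773931, - strand): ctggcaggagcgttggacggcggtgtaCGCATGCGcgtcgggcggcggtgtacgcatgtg
SAFB2 (chr19:5622926-5622985, - strand): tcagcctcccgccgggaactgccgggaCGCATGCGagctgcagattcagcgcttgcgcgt
CHMP2A (chr19:58555178-58555237, - strand): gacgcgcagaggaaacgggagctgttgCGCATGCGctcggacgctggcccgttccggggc

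Both lists were long and mostly weak. The deposited fold enrichment is the authors' ratio of fragments at the summit to the local background, with a constant added to each. Its median was 2.35 and its maximum 13.2 for TRIM28, and 2.95 and 24.3 for SETDB1. Of the TRIM28 peaks 2119 were strong (1.04%), and of the SETDB1 peaks 1363 (3.47%). Against IgG 3776 of 281182 TRIM28 peaks and 6838 of 276586 SETDB1 peaks were strong. The number of fragments was derived from fold and p. The median TRIM28 summit held 5 fragments and the median SETDB1 summit 6, against 9 and 14 at strong peaks. A background near 1.12 fragments for TRIM28 and 1.16 for SETDB1 was the most common. At such depth a site missing from a list was not detected there, which does not show that the protein was absent.

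Few sites were shared. An overlap of at least 1 bp was found for 6924 TRIM28 peaks, 3.40% of that list (95% interval 3.32% to 3.48%), and for 6892 SETDB1 peaks, 17.6% of the shorter list (17.2% to 17.9%). The lists had 1.26 Mb in common, of 56.3 Mb under TRIM28 and 10.5 Mb under SETDB1 peaks. Among strong peaks, 184 of 2119 TRIM28 peaks lay at a strong SETDB1 peak (8.68%, 7.52% to 9.96%) and 198 of 1363 SETDB1 peaks at a strong TRIM28 peak (14.5%, 12.7% to 16.5%). Looked up in both lists of the other library at any strength, 31.2% of strong TRIM28 peaks met SETDB1 and 58.4% of strong SETDB1 peaks met TRIM28. The remaining 1458 strong TRIM28 peaks and 567 strong SETDB1 peaks had no counterpart in either list.

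These shares moved with the control used for peak calling. Both input lists of shARID1A cells were taken to share 1 input library, and both IgG lists 1 IgG library, so the lists of a pair are not independent of that control. With both lists against IgG, 17.3% of TRIM28 and 17.6% of SETDB1 peaks overlapped. With unlike controls, which share no control library, TRIM28 against input met SETDB1 against IgG at 8.73% of its peaks, and 6.46% of the SETDB1 peaks were met in return. With TRIM28 against IgG and SETDB1 against input the shares were 2.02% and 14.3%. The part of a shared control in the overlap was not tested.

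Taking equally long lists from the top removed the difference in length. Of the 250 peaks with the highest significance in each input list, 18.4% of the TRIM28 peaks (13.8% to 23.8%) lay at a SETDB1 peak, against 13.6% of the top 1000 and 6.0% of the top 10000. In the IgG lists the shares were 15.6%, 12.6% and 9.30%. Of the top 100 TRIM28 peaks alone, 12 (95% interval 6.36% to 20.0%) were shared against input and 14 (7.87% to 22.4%) against IgG. Both intervals hold the share of the top 250, so whether the share keeps rising towards the head cannot be told. The input and IgG curves parted beyond the top 2000. Within the whole input lists the share of TRIM28 peaks at SETDB1 was 2.32% in the lowest 10% by fold and 6.87% in the highest, and that of SETDB1 peaks at TRIM28 15.1% and 32.8%.

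**Figure D1:**
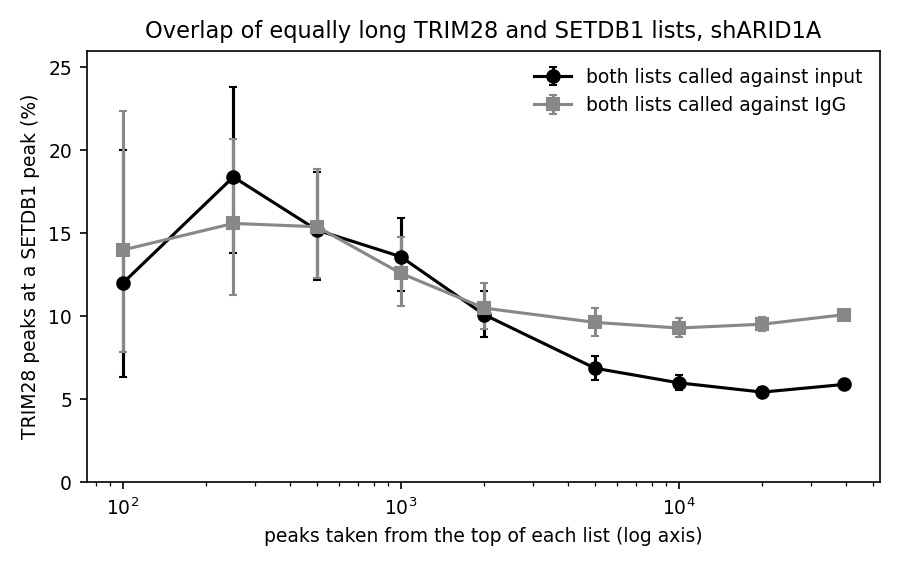
Share of TRIM28 peaks that overlap a SETDB1 peak (vertical axis, percent, with exact 95% intervals) when the same number of peaks is taken from the top of both shARID1A lists (horizontal axis, log scale), for input and IgG lists. The share falls from 18.4% at 250 peaks to 6.0% at 10000 in the input lists, and from 15.6% to 9.30% in the IgG lists.

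Where strong peaks overlapped, their summits lay close together. In 201 overlapping pairs of strong peaks the median distance between summits was 42 bp, against 131 bp in all 7011 pairs. The SETDB1 fold was the higher one in 86 of the 201 pairs. Across these pairs the folds of the libraries had a Spearman correlation of 0.762, which is a description only, since the pairs share a position, a control and, in repeated genes, near-identical sequence. In the 527 strong pairs of the IgG lists the median distance was 148 bp and the correlation 0.387.

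Peaks found in both libraries were wider than peaks found in one. The median TRIM28 width was 296 bp at shared and 229 bp at separate peaks, and the median SETDB1 width 262 and 226 bp. Shared TRIM28 peaks also had a higher median fold (2.68 against 2.35), and the part of width or fold in the overlap was not tested. Among strong TRIM28 peaks the medians were 422 bp where SETDB1 was strong and 318 bp elsewhere, and 31 of 184 shared peaks (16.8%) exceeded 1 kb, against 35 of 1935 (1.81%). For strong SETDB1 peaks the medians were nearly equal, at 351 and 345 bp, although 10.1% of the shared and 0.687% of the separate ones exceeded 1 kb.

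Against input, the tallest and widest shared TRIM28 peaks lay at ribosomal RNA genes. The widest, at the genes of the large rRNAs (made from the 45S precursor) on chromosome 21 (chr21:8204784-8209139, 4356 bp), had a fold of 13.2, and a SETDB1 peak within it 11.3. Against IgG the folds there were 13.2 and 11.8, and shared TRIM28 peaks in ARID1A (15.5) and at a tRNA gene (14.0) were taller. In all, 16 of the 184 strong shared TRIM28 peaks lay within 10 kb of the 45S runs of that chromosome and 12 at the 5S rRNA run of chromosome 1 (RNA5S1 to RNA5S17, chr1:228610266-228646158). A 5S site at chr1:228630532-228632139 had folds of 6.54 for TRIM28 and 6.49 for SETDB1, and 12.2 and 9.11 against IgG. Of the 29 annotated rRNA genes of these runs, 22 had strong peaks of both libraries, 5 of TRIM28 alone and 0 of SETDB1 alone. Reads of these genes cannot be placed on a single copy, so the copies are not independent sites.

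Transfer RNA genes were the other RNA polymerase III class among them. Of 443 tRNA genes with 500 bp either side, 16 had strong peaks of both libraries (3.61%), 2 of TRIM28 alone and 9 of SETDB1 alone. For comparison, 0.145% of protein-coding genes had strong peaks of both at a promoter, in a window of another width (1000 bp either side of a start). Against IgG the tRNA counts were 28 (6.32%), 18 and 36, beside 1.78% of protein-coding genes with both. Many tRNA genes lie in clusters, so 1 peak can count for several of them. The tallest shared tRNA site, chr1:161454223-161455186 in the tRNA cluster near FCGR2A, had a TRIM28 fold of 10.3 and a SETDB1 fold of 9.06, with 42 TRIM28 fragments at its summit.

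ARID1A, the gene named by the hairpin, held 6 of the strong shared peaks. Near its start (chr1:26696413-26697570) the TRIM28 fold was 10.5 against input and 15.5 against IgG, and the SETDB1 fold 24.0 and 36.0. The nearest listed start, 8 bp from that peak, is of LOC124900417. In the last part of ARID1A (chr1:26779886-26780699) the folds against input were 6.26 and 19.2. How the peaks lie to the exons of ARID1A was not tested. SETDB1 was the taller of the libraries at each of the 6 sites, and it had 4 more strong peaks within the gene.

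Another 48 strong shared TRIM28 peaks against input (26.1%) lay over 500 kb from any RefSeq gene. Of all strong TRIM28 and SETDB1 peaks, 14.8% and 10.3% did. Against IgG the share was lower, at 33 of 506 strong shared peaks (6.52%), beside 4.77% and 2.57%. Whether reads at these sites have a single place in the genome was not tested. One of the 48, at chr9:44129746-44130080, had folds of 7.53 and 5.86, which were 4.27 and 2.71 against IgG. Near the subtelomeric gene FRG2 (chr4:190022025-190022579) the folds were 11.7 for TRIM28 and 5.52 for SETDB1, and 5.39 and 3.54 against IgG. Without the rRNA runs, the stretches far from genes and ARID1A, 102 of 1759 strong TRIM28 peaks (5.8%, 4.75% to 7.0%) still lay at a strong SETDB1 peak, and 105 of 1173 SETDB1 peaks (8.95%) at a strong TRIM28 peak. This set was chosen after the tallest shared sites had been seen.

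**Figure D2:**
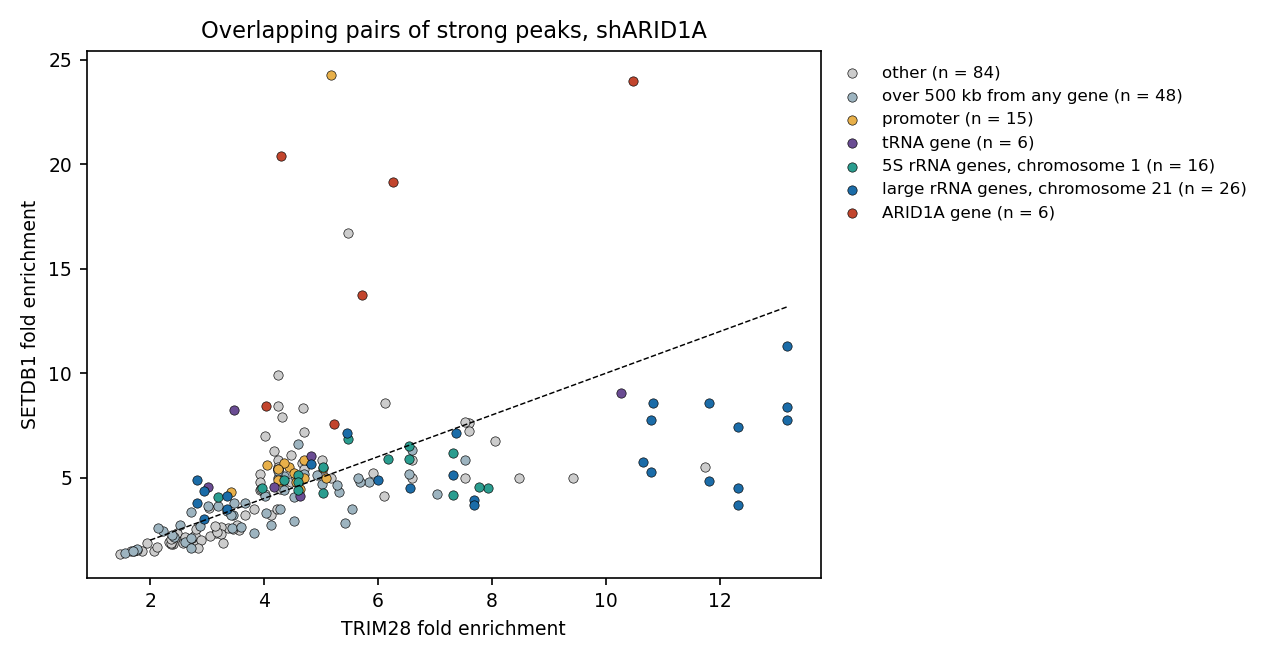
Fold enrichment of TRIM28 (horizontal axis) and SETDB1 (vertical axis) in the 201 overlapping pairs of strong peaks against input, coloured by place, with a dashed line of equal folds. The large rRNA genes of chromosome 21 reach a TRIM28 fold of 13.2 and lie below the line there, and the pairs in ARID1A lie above it, up to 10.5 for TRIM28 and 24.0 for SETDB1.

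Promoters, here peaks within 1000 bp of a RefSeq start of a protein-coding or long noncoding RNA gene, made up a small part of either list, and chromosome 8 was not used for them. Of all TRIM28 peaks 3.40% were promoter peaks, and of all SETDB1 peaks 8.14%. The share was 14.6% at shared TRIM28 peaks (956 of 6558, 13.7% to 15.5%), 3.01% at TRIM28 peaks without SETDB1 and 6.78% at SETDB1 peaks without TRIM28. Shared TRIM28 peaks thus stood 11.6 percentage points (Newcombe 95% interval 10.7 to 12.4) above separate TRIM28 peaks. Shared SETDB1 peaks were at promoters in 14.5% of cases (948 of 6529), which is 7.74 points (6.86 to 8.66) above separate SETDB1 peaks.

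Among strong peaks the order depended on the control and on the rule for the other library. Against input 9.44% of the shared TRIM28 peaks were at promoters (17 of 180), with 82.2% between genes, whereas 31.9% of the strong SETDB1 peaks without strong TRIM28 were at promoters (351 of 1102). Between genes here means outside protein-coding and long noncoding RNA genes, so the peaks at rRNA and tRNA genes can count as such. Shared SETDB1 peaks were at promoters in 9.28% of cases (18 of 194), and shared minus separate SETDB1 peaks gave a difference of -22.6 points (-26.9 to -17.0). Against IgG the direction turned: 43.6% of the strong shared TRIM28 peaks were at promoters (212 of 486), and the shared SETDB1 peaks (42.5%) stood 13.9 points (9.48 to 18.5) above the separate ones, of which 28.6% were at promoters. What held under both controls was the order of the separate sets, with strong SETDB1 peaks more often at promoters than strong TRIM28 peaks, by 22.3 points (19.2 to 25.4) against input and 9.03 points (7.21 to 10.8) against IgG. Strong TRIM28 peaks that met no SETDB1 peak in either list were seldom at promoters (54 of 1368, 3.95%), while those that met one were at promoters in 21.7% of cases. By the same looser rule, strong SETDB1 peaks were at promoters in 31.9% of cases with TRIM28 (241 of 756) and 23.7% without (128 of 540). This is the reverse of their order when TRIM28 had to be strong against input.

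**Figure D3:**
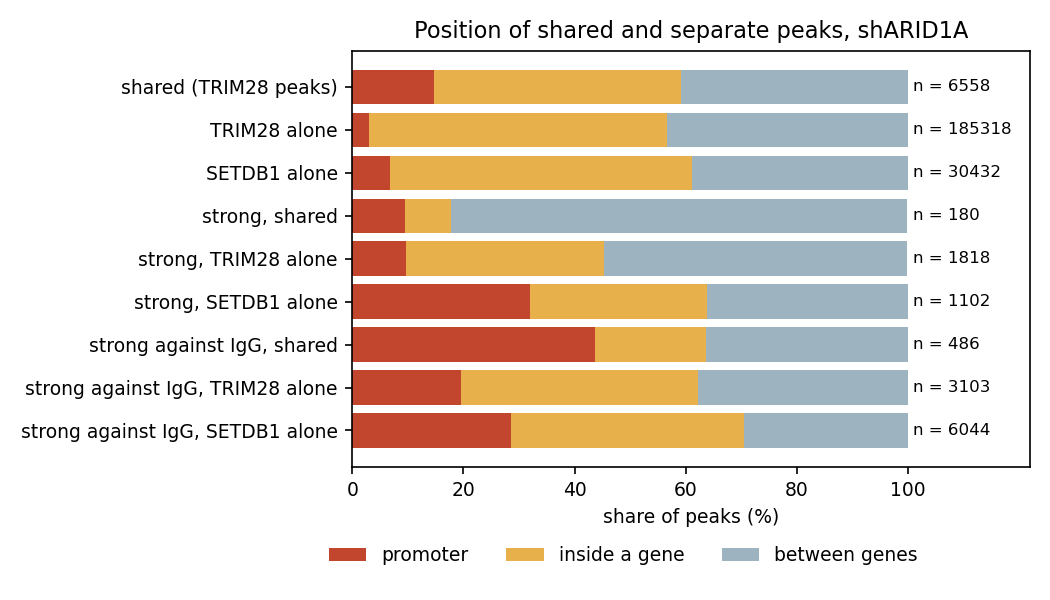
Share of peaks at promoters, inside genes and between genes (horizontal axis, percent) for shared TRIM28 peaks and for separate TRIM28 and SETDB1 peaks, in the input lists, among strong input peaks and among strong IgG peaks. Genes are protein-coding and long noncoding RNA genes only, so rRNA and tRNA genes can fall between genes. The promoter part of strong shared peaks is 9.44% against input and 43.6% against IgG, while strong separate SETDB1 peaks have 31.9% and 28.6%.

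The promoters with strong peaks of both libraries were led by the site near the ARID1A start. Next came a 5S rRNA site close to a start of RHOU, with a TRIM28 fold of 7.32 and a SETDB1 fold of 6.16. C1orf159 had a TRIM28 fold of 5.18 against both controls and the highest SETDB1 fold of the input list, 24.3 (24.6 against IgG). Most others were near 5 in both libraries. YJU2B had folds of 5.03 and 5.46, CCDC126 of 5.09 and 5.00, and ASB6, which encodes a substrate adaptor of ubiquitin ligases, of 4.71 and 4.96. KDM3B, a demethylase gene of H3K9, had 4.36 and 5.71, and IPO13, which encodes a nuclear import receptor, 4.43 and 5.51. YPEL3, THYN1, MPHOSPH6 and INKA2 had TRIM28 folds of 4.52 to 4.71 and SETDB1 folds of 4.46 to 5.86. Against IgG the TRIM28 folds of YJU2B and YPEL3 were lower, at 3.22 and 2.67. TRIM28 summits at these 10 promoters other than ARID1A and RHOU held 9 to 14 fragments, so each rests on few fragments.

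SETDB1 promoters without TRIM28 reached a fold of 16.2. This was below C1orf159 (24.3), the site near the ARID1A start (24.0) and UCKL1 (23.7), which all had TRIM28. The tallest without it was at PTDSS2, which encodes a phosphatidylserine synthase (chr11:449959-450486, fold 16.2, and 16.4 against IgG, with 35 fragments at the summit). TCEA2, an elongation factor gene of RNA polymerase II, had 15.3, and PEMT, whose enzyme methylates phosphatidylethanolamine, 14.0 (8.58 against IgG). TMEM11 had 13.1, FAM222A 12.7, BOD1, which encodes a protein for chromosome biorientation, 12.4, ARV1, a gene for sterol transport, 11.0, and the kinase gene STK25 10.8. None of these 8 sites had a TRIM28 peak in either list, by the rule that chose them. In 4 of the 8 the promoter window held ACTACAA, and in 2 GCATGCG. The H3K9me3 library of the same cells listed peaks against input at PTDSS2 (fold 2.26) and ARV1 (1.93) and at none of the other 6.

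SETDB1 sites away from promoters differed in what the other libraries listed there. The site in LETM1 had a fold of 9.46 and no peak of shARID1A H3K9me3 or shCtrl SETDB1 against input. The sites nearest MSRB3, NDST4 and KIF20B and the site in ZNF75A had SETDB1 folds of 8.56 to 10.3 against input and of only 2.10 to 6.36 against IgG, with H3K9me3 folds of 4.77 to 14.8 and shCtrl SETDB1 folds of 17.3 to 28.4. UNK (10.6) had a shCtrl SETDB1 peak of 3.62 and no H3K9me3 peak against input, and PNKD (8.75, and 20.5 against IgG) the reverse, with an H3K9me3 fold of 2.51.

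TRIM28 sites without SETDB1 were lower. The tallest promoter site lay 787 bp from a start of DPY19L1, which encodes a mannosyltransferase, with a fold of 6.32. The others were near a lncRNA on chromosome 9 (LOC105376031) and PCDHGB5, a clustered protocadherin gene (5.18 each), FAM230F (5.01), ZNF594 (4.87), MRPL36, a mitochondrial ribosomal protein gene, ANKS3 and ZNF160 (4.71 each). These summits held 9 to 13 fragments. Of these 8 promoter sites 4 overlapped a promoter window, and 0 held GCATGCG or ACTACAA there. Of the 8 tallest distal sites, 3 lay over 500 kb from any gene, and the placing of reads there was not tested either. The tallest of all, chr21:8987014-8987462, had a fold of 9.41 under both controls, and chr4:49142207-49142497 had 8.47 against input and 3.23 against IgG. Within a gene the tallest was in UGT1A4, a glucuronosyltransferase gene, at chr2:233725116-233725436 with a fold of 7.06 under both controls.

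Sequence under the promoter peaks set the libraries apart. Promoter windows of 300 bases (250 before to 50 after a start) that a strong peak overlapped were searched on both strands for 9 short motifs. They were CCGGAA (ETS), GGGCGG (SP/KLF), CACGTG (E-box), TGACGT (CRE), GCATGCG (NRF1), AAGATGG (YY1), ACTACAA (THAP11/ZNF143), TATAAA (a core promoter box) and TGANTCA (AP-1). THAP11 and ZNF143 are transcription factors that meet at a shared promoter element, and NRF1 is an activator of many nuclear genes for mitochondria. A match is only a description of the letters.

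ACTACAA was in 2.74% of all 34683 distinct windows and in 2.84% of CpG-rich ones, but in 93 of 314 windows under strong SETDB1 peaks (29.6%, 24.6% to 35.0%). Under strong TRIM28 peaks it was in 4 of 140 (2.86%, 0.784% to 7.15%), the level of all promoters. SETDB1 windows held it whether TRIM28 was absent from both lists (39 of 107, 36.4%) or present in one (54 of 207, 26.1%), with overlapping intervals of 27.4% to 46.3% and 20.2% to 32.6%. Against IgG the share was 12.1% in 1566 windows under strong SETDB1 peaks and 3.92% in 613 under strong TRIM28 peaks.

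GCATGCG showed the opposite. It was in 3.83% of all windows and 6.75% of CpG-rich ones, in 34 of 140 windows under strong TRIM28 peaks (24.3%, 17.4% to 32.2%) and in 18 of 314 under strong SETDB1 peaks (5.73%, 3.43% to 8.91%). Against IgG the shares were 17.5% for TRIM28 and 7.79% for SETDB1. Most of the matching TRIM28 windows had a SETDB1 peak of some strength: 31 of 116 windows with one (26.7%) and 3 of 24 without (12.5%, 2.66% to 32.4%) held the motif. GGGCGG, in 45.0% of all windows and 80.4% of CpG-rich ones, was in 72.3% under strong SETDB1 and 82.1% under strong TRIM28 peaks. The median GC content of the windows was 67.0% for SETDB1 and 70.7% for TRIM28, against 58.7% for all and 68.7% for CpG-rich windows.

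**Figure D4:**
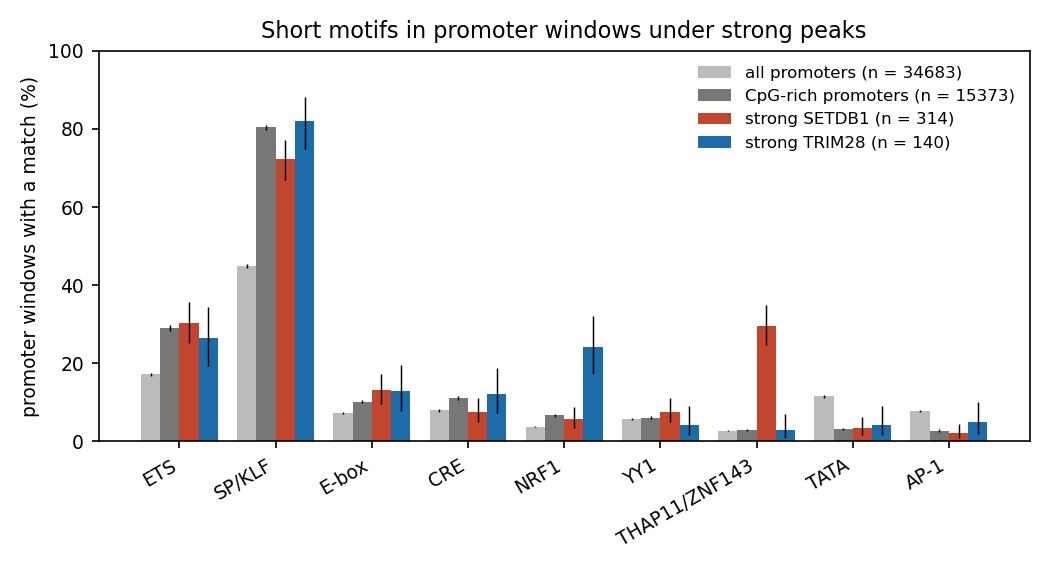
Share of promoter windows (vertical axis, percent, with exact 95% intervals) that hold each of 9 motifs, named by factor, in all promoters, CpG-rich promoters and windows under strong SETDB1 and strong TRIM28 peaks against input. The THAP11/ZNF143 motif reaches 29.6% under SETDB1 and 2.86% under TRIM28, and the NRF1 motif 5.73% and 24.3%.

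Both motifs were found more often under taller peaks. For SETDB1, ACTACAA was in 6.29% of promoter peaks with a fold of 2 to 3, 6.33% from 3 to 4, 13.4% from 4 to 5, 32.5% from 5 to 8 and 42.9% above 8 (15 of 35). For TRIM28 the same motif was between 2.57% and 4.17% from a fold of 1 to one of 8. GCATGCG in TRIM28 promoter peaks went from 6.61% (2 to 3) through 10.5% and 17.5% to 33.3% (5 to 8, 8 of 24), and in SETDB1 peaks stayed between 5.44% and 8.33% from a fold of 2 upwards. The 40 SETDB1 promoter peaks with a fold below 2 departed from this, with 20.0% for either motif. The matches also lay near the summits. Strong SETDB1 summits had a median distance of 33 bp to the nearest ACTACAA, with 66 of 94 within 50 bp, and strong TRIM28 summits 70 bp to GCATGCG, with 14 of 34 within 50 bp. Where TRIM28 peaks that were not strong held ACTACAA, it lay 150 bp from the summit in the median.

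**Figure D5:**
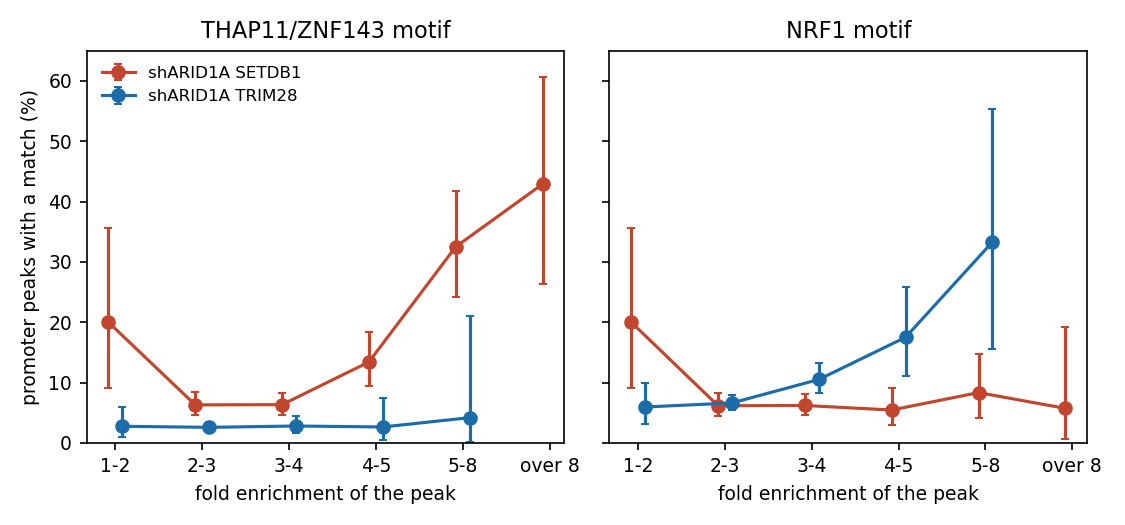
Share of promoter peaks that hold the THAP11/ZNF143 motif (left) and the NRF1 motif (right), in percent with exact 95% intervals, by fold enrichment of the peak against input, for classes of at least 20 peaks. The THAP11/ZNF143 share of SETDB1 reaches 42.9% above a fold of 8, and the NRF1 share of TRIM28 reaches 33.3% between 5 and 8.

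The same search in other libraries gave lower shares of ACTACAA. It was in 5.08% of 433 windows under strong shARID1A H3K9me3 peaks, in 5.97% of 2461 under strong shCtrl SETDB1 peaks against input and in 3.30% of 454 under strong shCtrl ARID1A peaks against IgG. GCATGCG was in 8.78%, 5.73% and 11.0% of these windows. The sets are unlike: strong peaks made up 47.5% of the shCtrl SETDB1 and 3.47% of the shARID1A SETDB1 input list. The median GC content of their windows was 56.7% and 67.0%. Against IgG, as for ARID1A here, the ACTACAA share of strong shARID1A SETDB1 was 12.1%. Strong shCtrl TRIM28 peaks against IgG overlapped only 3 windows. For neither library is a difference in motifs between cell states drawn.

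At the level of genes, 15811 protein-coding genes had a start in the promoter table. Of these 29.0% had a TRIM28 promoter peak of any strength against input, 16.9% a SETDB1 peak and 8.95% both (1415 genes), while 3168 had TRIM28 alone and 1264 SETDB1 alone. Thus 52.8% of the genes with SETDB1 also had TRIM28, and 30.9% of those with TRIM28 had SETDB1. With strong peaks 1.2% had TRIM28, 2.6% SETDB1 and 0.145% both, which are 23 genes, against 166 with TRIM28 alone and 388 with SETDB1 alone. Over gene bodies extended by 1000 bp the shares at any strength were 73.6%, 45.1% and 41.2%. Strong peaks in gene bodies were found in 3.95% for TRIM28, 4.08% for SETDB1 and 0.462% for both. Against IgG, where both lists were longer, 56.7% had a TRIM28 promoter peak, 60.6% a SETDB1 peak and 47.1% both (7443 genes). With strong IgG peaks the shares were 5.26%, 12.6% and 1.78%.

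Of 10 gene lists, zinc finger genes on chromosome 19 lay close to these shares for promoter peaks against input, with TRIM28 in 28.5% of 228, SETDB1 in 15.4% and both in 9.65%. Against IgG the list lay lower than all genes, with 51.3%, 47.8% and 40.8%, beside 56.7%, 60.6% and 47.1%. ZNF805 (TRIM28 3.64, SETDB1 4.51), ZNF555 (3.64, 3.25) and ZNF551 (3.77, 3.19) had the highest lower folds. Zinc finger genes elsewhere had 39.8%, 24.5% and 14.5% of 249, led by ZNF75A (4.55, 4.51), ZNF783 and ZNF768. With strong promoter peaks 5 of the chromosome 19 genes had SETDB1 (2.19%) and 1 TRIM28 (0.439%), and of the others 12 (4.82%) and 3 (1.2%). Beside these, 2.6% of all protein-coding genes had strong SETDB1 and 1.2% strong TRIM28. Genes with both numbered 0 in either list, which lists of this size cannot set apart from the 0.145% of all genes. In the bodies of the zinc finger genes, strong SETDB1 peaks were in 5.70% on chromosome 19 and 11.2% elsewhere, beside 4.08% of all protein-coding genes. Strong TRIM28 peaks were in 2.19% and 8.84%, beside 3.95%.

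Among 29 heterochromatin genes 11 had a TRIM28 promoter peak (37.9%, beside 29.0% of all genes), 10 a SETDB1 peak (34.5%, beside 16.9%) and 5 both (17.2%, beside 8.95%). TASOR, a subunit of the HUSH complex, had strong peaks of both (4.05 and 5.58). MORC2, an ATPase gene of the same pathway, had 3.29 and a strong 4.96, and ATF7IP, which encodes a partner of SETDB1, 3.01 and 2.92. SWI/SNF subunit genes had 12, 9 and 5 of 24 (50.0%, 37.5% and 20.8%), with BCL7A (2.82, 3.61) and BRD7 (2.76, 3.08) after ARID1A. Of 21 p53 targets 10 had TRIM28 (47.6%), 7 SETDB1 (33.3%) and 4 both, PLK2 (2.85, 4.32), XPC (2.67, 4.21) and ZMAT3 (3.58, 2.39) among them. Ribosomal protein genes had 14, 14 and 6 of 68 against input (20.6%, 20.6% and 8.82%, the last close to all genes), with RPLP2 (2.84, 4.71) and RPSA (2.64, 4.31) strong for SETDB1 only. Against IgG they stood above all genes, with 79.4%, 88.2% and 76.5%, beside 56.7%, 60.6% and 47.1%. Strong SETDB1 peaks against IgG were at 39.7% of them, beside 12.6% of all genes.

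In the remaining gene lists most promoter counts depended on the control, as those of all genes did. Clustered protocadherin genes had a TRIM28 promoter peak in 20 of 47 cases against input (42.6%, beside 29.0% of all genes) and a SETDB1 peak in 3 (6.38%, beside 16.9%), but 21 and 15 against IgG (44.7% and 31.9%, beside 56.7% and 60.6%). Strong TRIM28 peaks against input lay in the bodies of 25 of the 47 (53.2%, beside 3.95%) and strong SETDB1 peaks in 0 (beside 4.08%). These genes overlap each other along the cluster, so 1 peak can count for many of them. PCDHGA9 (2.82, 3.16) and PCDHGA8 (3.19, 2.28) had both. Olfactory receptor genes had TRIM28 in 35 of 314 cases (11.1%) and SETDB1 in 3 (0.955%), but 37 and 38 against IgG (11.8% and 12.1%), all below the shares of all genes. Histone genes had 15, 10 and 3 of 64 against input (23.4%, 15.6% and 4.69%, beside 29.0%, 16.9% and 8.95% of all genes). Among those with both, H3C4 (2.68, 2.39) was highest. Against IgG the histone genes had 73.4%, 64.1% and 60.9%, beside 56.7%, 60.6% and 47.1% of all genes. Interferon and RNA-sensing genes had 4, 2 and 1 of 24 against input (16.7%, 8.33% and 4.17%), the last being IRF1 (3.29, 3.14). Against IgG they lay near the shares of all genes, with 54.2%, 62.5% and 50.0%.

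Readouts that the overlap did not use were looked up at the shared and separate peaks. The H3K9me3 lists of shARID1A cells were taken to share the input and IgG libraries of the pair, so are not independent of it. Over all peaks, H3K9me3 against input lay at 5.35% of TRIM28 and 11.2% of SETDB1 peaks. H3K9me3 of shARID1A cells lay at 130 of the 184 strong shared TRIM28 peaks against input (70.7%, 63.5% to 77.1%) and at 42.9% against IgG. Of strong SETDB1 peaks with no TRIM28 in either list, 47.8% had H3K9me3 against input and 53.3% against IgG, and of strong TRIM28 peaks with no SETDB1 19.8% and 16.7%. Under both controls the separate SETDB1 peaks thus met H3K9me3 more often than the separate TRIM28 peaks did. The strong shared peaks stood above the separate SETDB1 peaks against input and below them against IgG. Strong SETDB1 peaks with TRIM28 of any strength in either list met H3K9me3 at 56.5% against input and 62.1% against IgG. Within the separate SETDB1 set, strong H3K9me3 against input was at 10.2% of promoter (5.52% to 16.7%) and 46.9% of distal peaks (42.2% to 51.7%). Against IgG the shares were 29.7% and 43.1%. With H3K9me3 of any strength the shares were 23.4% and 54.9% against input. Against IgG they were 55.5% and 52.6%, so there promoter peaks were not the lower ones.

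The lists of shCtrl cells share no control with those of shARID1A cells. A shCtrl SETDB1 peak against input lay at 54.5% of the strong SETDB1 sites without TRIM28 in either list (50.3% to 58.7%). It lay at 40.1% of the strong SETDB1 sites with TRIM28 of any strength in either list (36.7% to 43.6%). At the strong shared TRIM28 peaks, a set made by another rule, the share was 14.1% (9.44% to 20.0%). Of all strong peaks against input, 42.9% of shARID1A SETDB1 and 53.5% of shARID1A H3K9me3 met a strong shCtrl SETDB1 peak. ARID1A of shCtrl cells against IgG had a peak at 39.7% of strong shared sites, 28.0% of strong SETDB1 sites without TRIM28 and 11.4% of strong TRIM28 sites without SETDB1. At promoters alone the last 2 shares were 66.4% of 128 sites (57.5% to 74.5%) and 29.6% of 54 (18.0% to 43.6%). That ARID1A list held 314688 peaks, of which 0.803% were strong. With ARID1A against input the promoter shares were 19.5% and 5.56%, and with strong ARID1A peaks against IgG 0.781% and 0.0%. The share over all promoters was not computed. shCtrl TRIM28 against IgG had a peak at 29.9%, 13.1% and 16.7% of the strong shared, SETDB1 and TRIM28 sites.

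Between TRIM28 and SETDB1 of shCtrl cells themselves, 7.57% of 70447 TRIM28 peaks and 6.66% of 79404 SETDB1 peaks overlapped against input, and 6 of 25 strong TRIM28 peaks met a strong SETDB1 peak. Those lists differ in length and depth from the shARID1A ones, so no difference between the cell states is drawn. By chromosome, the share of shARID1A SETDB1 peaks at TRIM28 ran from 10.5% on X to 26.6% on chromosome 19 and 37.4% on chromosome 21, which holds the 45S runs.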

How the data were processed

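Peak lists of 7 libraries in 14 files were used, 4 of them for the pair itself. The submitters' processing notes list MACS2 2.2.7.1, Bowtie2 2.2.5, ChIPseeker, deepTools 3.5.1 and FastQC 0.11.9, and the builds hg38 and GRCh38, with no options. The authors called peaks per library. The deposited fold is the authors' ratio of pileup to local background at the summit, with a constant added to each. The deposited −log10 p and −log10 q come from the same call. Weak peaks reached an unadjusted p of 0.0493.

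Overlaps, positions and motifs were computed with Python 3.11.15, numpy 2.4.6, pandas 2.3.3 and scipy 1.17.1, and the interval functions were tested on simulated data. Fragment counts at summits were recovered from fold and −log10 p within 0.0005. Shares have exact Clopper-Pearson intervals. Starts came from 34961 RefSeq promoter windows (GRCh38.p14) of 27195 genes, without chromosome 8. CpG-rich meant a GC content of at least 55% and an observed over expected CpG of at least 0.6. Shared sites were named by the lower of both folds (first 12 promoter and 8 distal sites, strong in both and present in the own IgG list), separate sites by fold (first 8 of each kind, with no peak of the other library in either list), and genes of a list by the lower fold (up to 3). Some nearest-gene names without a known function were left out, and 1 distal SETDB1 site is not reported here. The pair, motifs, gene lists and named-gene rule were chosen with earlier results of these data known.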

Additional observations from a re-analysis of the deposited data

How the results depend on the processing

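All values rest on 1 library per group. No paired analysis was possible because each group has 1 library and no replicate number, and leaving out a replicate was not possible for the same reason. Summits of 5 or 6 fragments limit what could be detected, so an absent peak is weak evidence. For the shares of TRIM28 peaks at SETDB1 and of SETDB1 peaks at TRIM28 (3.4% and 17.6%), the values were 17.3% and 17.6% with IgG lists, 8.73% and 6.46% with TRIM28 against input and SETDB1 against IgG, 2.02% and 14.3% with the reverse, 8.68% and 14.5% among strong peaks, 3.05% and 11.9% with both control lists, 6.0% and 6.2% for the top 10000, 2.36% and 12.3% with 50% of the shorter peak, 2.42% and 12.5% with summits within 200 bp, and 3.85% and 18.4% after merging within 1 kb. Without rRNA runs, stretches far from genes and ARID1A, chosen after seeing the data, 5.8% of strong TRIM28 peaks were shared. Median widths of shared and separate TRIM28 peaks (296 and 229 bp) were 298 and 233 bp with IgG lists, 422 and 318 bp among strong peaks and 381 and 298 bp for the top 10000, and those of SETDB1 (262 and 226 bp) were 305 and 239, 351 and 345, and 312 and 255 bp. Promoter shares of shared, TRIM28-only and SETDB1-only peaks (14.6%, 3.01% and 6.78%) were 13.1%, 2.07% and 5.51% within 500 bp of a start, 16.8%, 5.43% and 9.37% within 2500 bp, 12.9%, 2.29% and 5.83% with protein-coding starts, 16.6%, 3.47% and 4.32% with IgG lists, 25.4%, 4.17% and 7.81% with both control lists, 16.5%, 5.89% and 13.5% for the top 10000, 9.44%, 9.57% and 31.9% among strong input peaks and, chosen after seeing the data, 43.6%, 19.6% and 28.6% among strong IgG peaks. Genes with promoter peaks of both, TRIM28 alone and SETDB1 alone (1415, 3168 and 1264) numbered 7443, 1523 and 2134 with IgG lists, 23, 166 and 388 with strong peaks, 150, 435 and 1137 for the top 10000, 1332, 2833 and 1299 with both control lists, and 6522, 5113 and 605 over gene bodies. ACTACAA was in 12.1% and GCATGCG in 17.5% of windows under strong IgG peaks of SETDB1 and TRIM28, in place of 29.6% and 24.3%, and 29.7% and 24.3% with both control lists, alternatives also chosen after seeing the data. The cause of these shifts was not tested.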
